A study of Mus musculus with 1646 samples.

Results

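The 10 genes of prostaglandin synthesis, breakdown and E prostanoid signalling followed here were *Ptgs1*, *Ptgs2*, *Ptges*, *Ptgis*, *Ptgds*, *Hpgd* and *Ptger1* to *Ptger4*, out of 46517 genes in the count table of mouse colon mesenchymal cells. They were taken by name, as the rows whose Ensembl identifier carries one of these symbols in the GENCODE vM21 annotation of GRCm38, and all 10 were found. The table holds Smart-seq2 read counts of 1646 cells, sorted from the colon of male mice aged 10 to 20 weeks into 384-well plates. Sorting kept cells negative for the endothelial antigen CD31 and positive for a fluorescent reporter or for PDGFRα or PDGFRβ. Each cell comes from a reporter line, in which a fluorescent protein is driven by the promoter of the named gene: PdgfrbGFP (761 cells, 4 plates), Acta2GFP (567 cells, 2 plates), Cspg4dsRED (91 cells, 1 plate) and, for the remaining cells, PdgfraGFP (2 plates). The labels name no treatment, and tissue of the Acta2GFP line was additionally digested with elastase, so line, gate and digestion cannot be told apart. Each cell carries the authors' cluster label, 1 to 8, and the study's methods name clusters 1, 2, 5, 6 and 7 as fibroblast clusters (1307 cells). The remaining cells, clusters 3, 4 and 8, are called mural here from the markers given below. Mural cells are the pericytes and smooth muscle cells of vessels, but the colon also holds smooth muscle cells apart from vessels, and the name is not meant to separate both kinds of smooth muscle.

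Prostaglandins are short-range lipid signals made from arachidonic acid, which phospholipase A2 frees from membranes. The cyclooxygenases convert it to prostaglandin H2, terminal synthases turn that intermediate into prostaglandin E2, prostacyclin or prostaglandin D2, and a dehydrogenase inactivates the products. Prostaglandin E2 acts on the receptors EP1 to EP4, of which EP2 and EP4 raise cyclic AMP, EP3 lowers it and EP1 raises calcium. In the colon this pathway is known for its part in epithelial renewal, repair of the mucosa and tumour growth, and mesenchymal cells under the epithelium are a known source of prostaglandin E2.

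Levels are given as counts per 500000: each cell's count was divided by its total count on genes and multiplied by 500000, and cells of a cluster were averaged within a line. A line with at least 10 cells of a cluster gives 1 value, so n below is a number of lines, and the labels name no animal within a line. Total counts on genes ran from 47598 to 1494292 per cell (median 248628). The median per cluster was lowest in cluster 8 (118252) and highest in cluster 3 (359677). Markers matched the labels: the summed level of 8 fibroblast markers was 5564 to 9986 in the fibroblast clusters and 462.9, 1237 and 1758 in the mural clusters 3, 4 and 8. The sum of 5 mural markers was 4201, 5472 and 1866 in clusters 3, 4 and 8 and at most 226.9 in the fibroblast clusters, so cluster 8, from the Acta2GFP line alone, had the lowest of the mural sums. Cluster 2 is called apex-like after *Tnc*, *Il1rl1*, *Foxl1* and *Lama5*, whose sum was 2789 there and at most 564 elsewhere. Cluster 4 is called pericyte-like (pericyte markers 1421, against 293.5 and 104.8 in clusters 3 and 8), and clusters 3 and 8 smooth muscle-like (smooth muscle markers 6242 and 10160, against 1432 in cluster 4). Summed immune markers reached at most 13.96 and mast cell markers at most 0.420 in any cluster, and summed endothelial markers 70.1 in cluster 4 and at most 25.2 elsewhere, after the authors had removed cells with immune or endothelial signatures. The 4 markers of tuft cells, epithelial cells that also make prostaglandins, summed to 80.97, 54.99 and 96.9 in clusters 1, 5 and 7, nearly all of it *Dclk1* (78.3, 53.2 and 95.2), while *Trpm5* was at most 0.638 in any cluster. The 2 markers of interstitial cells of Cajal summed to 171.3, 292.4 and 294.99 in clusters 2, 3 and 4, nearly all of it *Ano1*, with *Kit* at most 8.85.

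The members with the highest levels in the apex-like cluster, *Ptgs1*, *Ptgs2* and *Ptges*, are shown with the 250 bases before their RefSeq start (GRCm38.p6), because these promoters can be read beside genes that were high in the same cells. Capitals mark the GC box GGGCGG, searched on both strands.
Ptgs1 promoter (chr2:36230176-36230425, plus strand): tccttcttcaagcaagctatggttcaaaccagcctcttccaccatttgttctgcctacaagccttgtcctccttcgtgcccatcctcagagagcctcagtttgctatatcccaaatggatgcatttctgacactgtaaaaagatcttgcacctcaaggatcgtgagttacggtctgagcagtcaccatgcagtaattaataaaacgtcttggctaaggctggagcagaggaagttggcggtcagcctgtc
Ptgs2 promoter (chr1:150099781-150100030, plus strand): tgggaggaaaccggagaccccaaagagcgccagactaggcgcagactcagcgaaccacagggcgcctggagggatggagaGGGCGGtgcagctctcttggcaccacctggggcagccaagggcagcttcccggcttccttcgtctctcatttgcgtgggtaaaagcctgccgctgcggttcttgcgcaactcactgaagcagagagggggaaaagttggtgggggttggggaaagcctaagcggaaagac
Ptges promoter (chr2:30903298-30903547, minus strand): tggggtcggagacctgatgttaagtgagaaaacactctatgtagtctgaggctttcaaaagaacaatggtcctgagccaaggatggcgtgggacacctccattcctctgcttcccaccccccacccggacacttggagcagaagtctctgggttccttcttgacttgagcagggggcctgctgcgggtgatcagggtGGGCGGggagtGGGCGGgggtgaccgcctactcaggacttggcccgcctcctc
The GC content was 48% for *Ptgs1*, 61.6% for *Ptgs2* and 59.6% for *Ptges*, against a median of 52% over 27025 RefSeq promoters of the same length. *Ptgs2* held a GC box 170 bases before its start, *Ptges* held GC boxes 53 and 42 bases before its start, and *Ptgs1* held none. A GC box stood in 32.9% of all promoters, so its presence is common. None of these 3 windows held TATAAA (in 12.97% of promoters), CCAAT (34.5%), the cyclic AMP response element TGACGTCA (1.62%) or its shorter form TGACG (17.9%), which lies within the longer one, the E-box CACGTG (6.05%), the AP-1 letters TGANTCA (6.87%) or the STAT letters TTCNNNGAA (7.18%). RefSeq promoters were matched for 8 of the 10 members, all but *Ptgis* and *Ptger1*.

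The cyclooxygenase genes were the members with the steepest pattern. *Ptgs2* (chr1:150100031-150108227, plus strand), the inducible cyclooxygenase COX-2, had levels of 1328, 811 and 1139 counts per 500000 in cluster 2 of the Acta2GFP, PdgfraGFP and PdgfrbGFP lines. In clusters 1, 5, 6 and 7 the line values lay between 3.49 and 65.7, and in the mural clusters between 0.482 and 7.27. No line value of another cluster came near the lowest value of cluster 2, and *Ptgs2* in the mural clusters 3 and 4 was below every fibroblast value. *Ptgs1* (chr2:36230426-36252272, plus strand), the constitutive cyclooxygenase COX-1, was 614, 591 and 645 in cluster 2 of the same lines. Its values in cluster 7 were 145.6, 79.1 and 110, and 52 Acta2GFP cells of cluster 8 had 111.2. In clusters 1 and 5 it was 47.1 to 92.8 and 22.2 to 36.7, and in clusters 3 and 4 it was 0.881 to 21.7. So *Ptgs1* stood above all other line values in cluster 2 as well. Clusters 1, 6, 7 and 8 followed with overlapping values of 47.1 to 190, and clusters 3, 4 and 5 came below them. The lowest value of cluster 5, 22.2 in Cspg4dsRED, rested to 97.4% on 1 of 13 cells and was 0.618 over the other 12, and the 21.7 of Cspg4dsRED in cluster 4 rested to 95.9% on 1 of 33 cells and was 0.908 over the other 32. Read per kilobase of exon, which allows the genes to be compared, the level in cluster 2 was 238.6 ± 57.1 (SD, n = 3) for *Ptgs2* and 158.8 ± 7.03 for *Ptgs1*. The ratio of *Ptgs2* to *Ptgs1* per kilobase was 1.83, 1.16 and 1.497 in the 3 lines of cluster 2 and at most 0.415 in clusters 1 and 7, while cluster 5 had 0.530 to 1.36. *Ptgs1* thus gave nearly equal values in the 3 lines of cluster 2, while *Ptgs2* spread over them.

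Of the terminal synthases, *Ptges* shared the peak of the cyclooxygenases and *Ptgis* was lowest where they peaked. *Ptges* (chr2:30889471-30929863, minus strand) encodes the microsomal synthase that makes prostaglandin E2 downstream of COX-2. Its levels in cluster 2 were 311.4, 216.3 and 254.2 in Acta2GFP, PdgfraGFP and PdgfrbGFP, in cluster 1 they were 95.7, 117.2 and 136.7, and in cluster 6 they were 135.2 in Acta2GFP and 81.3 in PdgfraGFP. Clusters 5 and 7 had 38.7 to 71.4, cluster 8 had 40.4, cluster 4 had 4.79 and 8.93, and cluster 3 had 0.132 to 2.96. Cluster 2 lay above all other values, clusters 1 and 6 overlapped each other, and the smooth muscle-like cells split, with cluster 8 in the range of fibroblasts and cluster 3 near 0. The Acta2GFP value of cluster 6 rested to 64.1% on 1 of 10 cells and was 53.96 over the other 9, below cluster 1 and within the range of clusters 5 and 7. *Ptgis* (chr2:167191805-167240604, minus strand), prostacyclin synthase, ran the other way among fibroblasts. It was 1.91, 0.628 and 11.2 in the Acta2GFP, PdgfraGFP and PdgfrbGFP cells of cluster 2, and 83.1, 15.5 and 51.9 in cluster 1. Cluster 5 had 259.01, 273.4, 127.6 and 234.3 in Acta2GFP, Cspg4dsRED, PdgfraGFP and PdgfrbGFP, cluster 7 had 230, 139.4 and 200.6, and cluster 6 had 282.98 in Acta2GFP and 160.4 in PdgfraGFP. Clusters 5, 6 and 7 overlapped one another and lay above all other clusters, and the highest value of cluster 2 was below the lowest of cluster 1. Among mural cells *Ptgis* was 57.1 to 69.4 in cluster 3, 31.05 and 8.87 in cluster 4 and 9.23 in cluster 8. The ratio of *Ptges* to *Ptgis* per kilobase was 106.6, 224.9 and 14.8 in cluster 2 and 0.0990 to 0.350 in clusters 5 and 7, with no overlap.

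**Figure D1:**
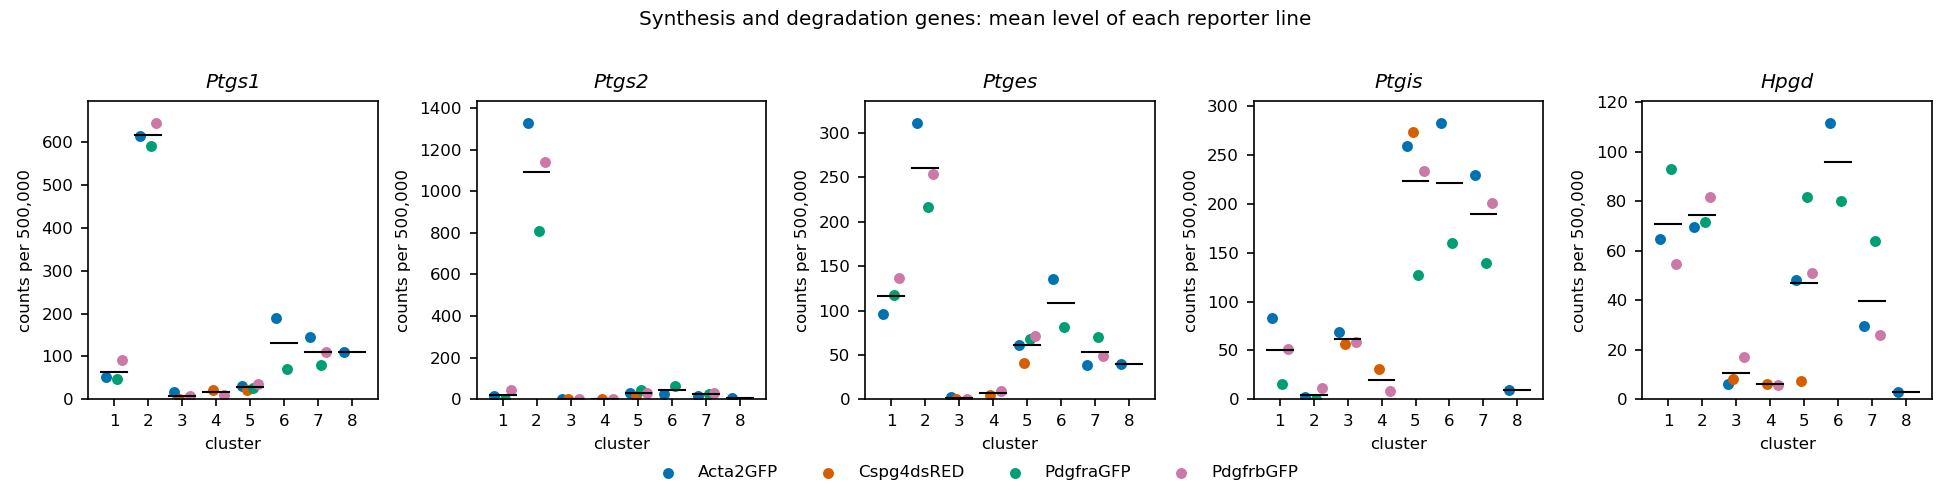
Mean level of each reporter line, in counts per 500000, for the synthesis and breakdown genes over clusters 1 to 8; each point is a line with at least 10 cells of the cluster and the bar is the mean of the lines. *Ptgs1*, *Ptgs2* and *Ptges* are highest in cluster 2, where *Ptgs2* runs from 811 to 1328, and *Ptgis* is highest in clusters 5, 6 and 7.

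*Ptgds* (chr2:25466709-25470046, minus strand), the lipocalin-type prostaglandin D synthase, had 5 counts in 3 cells of cluster 1 of the Acta2GFP line and none in any other cell, so it was not tested. *Hpgd* (chr8:56294585-56321043, plus strand) encodes the hydroxyprostaglandin dehydrogenase that inactivates prostaglandins. Its levels were 69.8, 71.6 and 81.6 in cluster 2, 64.6, 93.2 and 54.7 in cluster 1, and 29.6, 64.05 and 26.1 in cluster 7 of Acta2GFP, PdgfraGFP and PdgfrbGFP. Cluster 5 had 48.1, 7.35, 81.9 and 51.04, the lowest being the 13 Cspg4dsRED cells, and cluster 6 had 111.6 and 80.01. In *Hpgd* cluster 2 overlapped clusters 1, 5 and 6 and lay above every value of cluster 7. The 7.35 of cluster 5 rested to 93.2% on 1 of the 13 cells. The mural values were 6.02, 8.29 and 17.3 in cluster 3, 6.12 and 5.98 in cluster 4 and 2.82 in cluster 8. In cluster 3 a single cell held 63.4% to 98.1% of the *Hpgd* level of each line.

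The EP receptor genes divided the clusters differently from the enzymes. *Ptger1* (chr8:83666678-83672753, plus strand), encoding EP1, was 131.3, 100 and 136.1 in cluster 1 of Acta2GFP, PdgfraGFP and PdgfrbGFP. Cluster 2 had 15.8, 22.5 and 30.004, cluster 5 had 14.4 to 26.1, and cluster 7 had 9.03, 0.851 and 6.91. The 14.4 of Cspg4dsRED in cluster 5 rested to 77.5% on 1 of 13 cells and was 3.52 over the others, within the range of cluster 7. Cluster 1 lay above clusters 2, 5 and 7 in every line, and cluster 7 lay below cluster 2. In cluster 6 the lines parted, with 120.5 in Acta2GFP (10 cells) and 6.99 in PdgfraGFP (26 cells), and clusters 4 and 8 had 33.9, 27.2 and 37.1. The PdgfraGFP value of cluster 6 rested to 73.2% on 1 cell and was 1.95 over the others, and the 33.9 of Cspg4dsRED in cluster 4 rested to 74.3% on 1 cell and was 8.97 over the others. No source says whether counting was stranded, so where exons of a member overlap a gene on the other strand, as parts of *Ptger1*, *Ptger4* (15.3% of exon bases), *Ptgis* (6.08%), *Ptger2* (4.74%) and *Ptgs1* (3.81%) do, the reads cannot be told apart.

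*Ptger2* (chr14:44988195-45003820, plus strand), encoding EP2, separated the clusters most sharply among the receptors. Its levels were 35.1, 44.7 and 36.1 in cluster 1, 53.98, 51.4 and 24.2 in cluster 2, and 26.1 and 21.5 in cluster 6. Clusters 5 and 7 had 0 to 1.42 and 0.252 to 0.630, the Cspg4dsRED cells of cluster 5 being at 0. Clusters 1 and 2 overlapped, and every value in clusters 5 and 7 was below every value in clusters 1, 2 and 6. Among mural cells it was 36.004 in cluster 8 and 0 to 2.67 in clusters 3 and 4. *Ptger4* (chr15:5206661-5244187, minus strand), encoding EP4, was found in every cluster. It was 42.996, 40.9 and 41.4 in cluster 1, 37.4, 18.8 and 37.7 in cluster 2, and 30.6, 32.5, 42.3 and 31.6 in cluster 5. Cluster 7 had 15.5, 79.3 and 16.4, the PdgfraGFP value resting to 77.5% on 1 of 15 cells and being 19.1 over the other 14. In cluster 5 the 32.5 of Cspg4dsRED rested to 70.99% on 1 of 13 cells and was 10.2 over the others. Cluster 6 had 1.43 in Acta2GFP and 19.6 in PdgfraGFP, the latter 4.23 without 1 cell, cluster 8 had 17.4, and clusters 3 and 4 had 3.17 to 8.88. Cluster 7 overlapped clusters 1, 2 and 5 through its PdgfraGFP value. *Ptger3* (chr3:157566892-157645888, plus strand), encoding EP3, had a count in 73 cells, and its line values lay between 0 and 2.90 with 2 exceptions. The value of 19.5 in cluster 3 of Acta2GFP came from 1 cell with 999 counts, and 99.8% of the 4.84 in cluster 5 of PdgfraGFP also came from 1 cell. In cluster 1, per kilobase of exon, *Ptger1* was 22.4 ± 3.58, *Ptger2* 7.44 ± 1.02 and *Ptger4* 6.28 ± 0.167 (SD, n = 3).

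**Figure D2:**
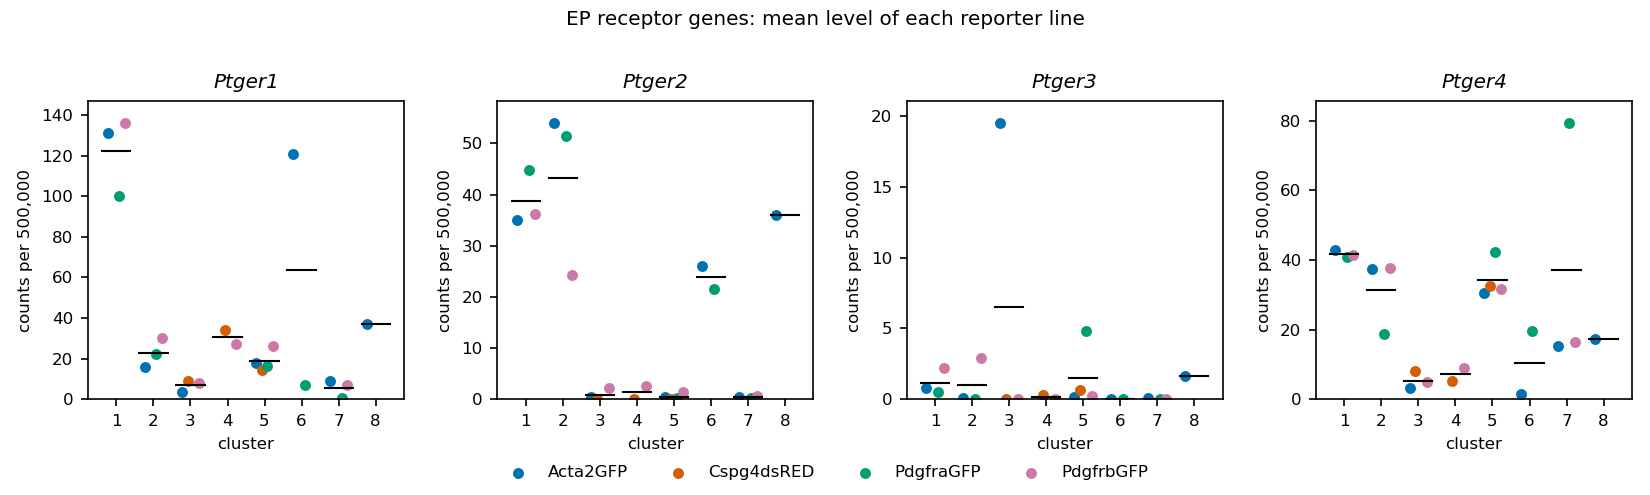
Mean level of each reporter line, in counts per 500000, for the 4 EP receptor genes over clusters 1 to 8, with points and bars as for the synthesis genes and a separate scale for each gene. *Ptger1* is highest in cluster 1 (100 to 136.1), *Ptger2* is at or near 0 in clusters 3, 4, 5 and 7, and the high point of *Ptger3* in cluster 3 is 1 cell.

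Shares of cells with a count were compared after thinning each cell to 50000 counts, which left out 11 cells below that depth. Intervals are 95% Clopper-Pearson intervals and cover counting error only, since reads without molecular identifiers are not independent molecules. In cluster 2, *Ptgs1* was found in 98.5% of thinned cells (94.6% to 99.8%) and *Ptges* in 84.7% (77.4% to 90.4%); unthinned, the shares were 99.2% and 90.8%. For *Ptgs2* the thinned share outside cluster 2 was 29.1% to 40% in fibroblast clusters and 6.43% to 25.9% in mural clusters. *Ptgis* was found in 84.4% of thinned cells of cluster 5 and 87.3% of cluster 7, against 23.7% (16.7% to 31.9%) of cluster 2; unthinned, the shares were 92.7%, 96.9% and 49.6%. *Ptger1* was found in 60.5% (55.97% to 64.9%) of thinned cells of cluster 1, from 76.6% unthinned, and in 19.3% to 38.9% elsewhere. *Ptger2* was found in 29.9% of cells of cluster 5 and 24.7% of cluster 7 before thinning, and in 5.66% and 2.73% after it, close to the 4.29% and 3.57% of clusters 3 and 4. After thinning its shares in clusters 1, 2 and 8 were 27.03%, 30.5% and 29.6%. Levels within a cluster were unequal between cells: the quartiles of *Ptgs2* in cluster 2 were 218.2, 892 and 1571 counts per 500000 and the highest cell had 4786, and in cluster 1 the top 10% of cells held 46.9% of *Ptger1* and 69.5% of *Ptger2*.

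Co-detection of the 3 enzymes that lead from arachidonic acid to prostaglandin E2 was frequent in the apex-like cells. After thinning, *Ptgs1*, *Ptgs2* and *Ptges* were all found in 78.6% (70.6% to 85.3%) of cluster 2 cells, where the product of the 3 shares was 78.98%. The same was true of 16.2% of cells in cluster 1 and 16.3% in cluster 5, where the products were 10.8% and 9.44%, and of 0.714% to 11.1% in mural clusters. Adding *Pla2g4a*, the cytosolic phospholipase A2, left 75.6% of cluster 2 cells. Counts of at least 2 EP receptor genes were found in 39.1% of thinned cells in cluster 1, against 31.5%, 19.8% and 4.29% in clusters 8, 2 and 4. No EP receptor gene was found in 67.9% of thinned cells in cluster 4, 65.7% in cluster 3 and 18.9% in cluster 1.

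**Figure D3:**
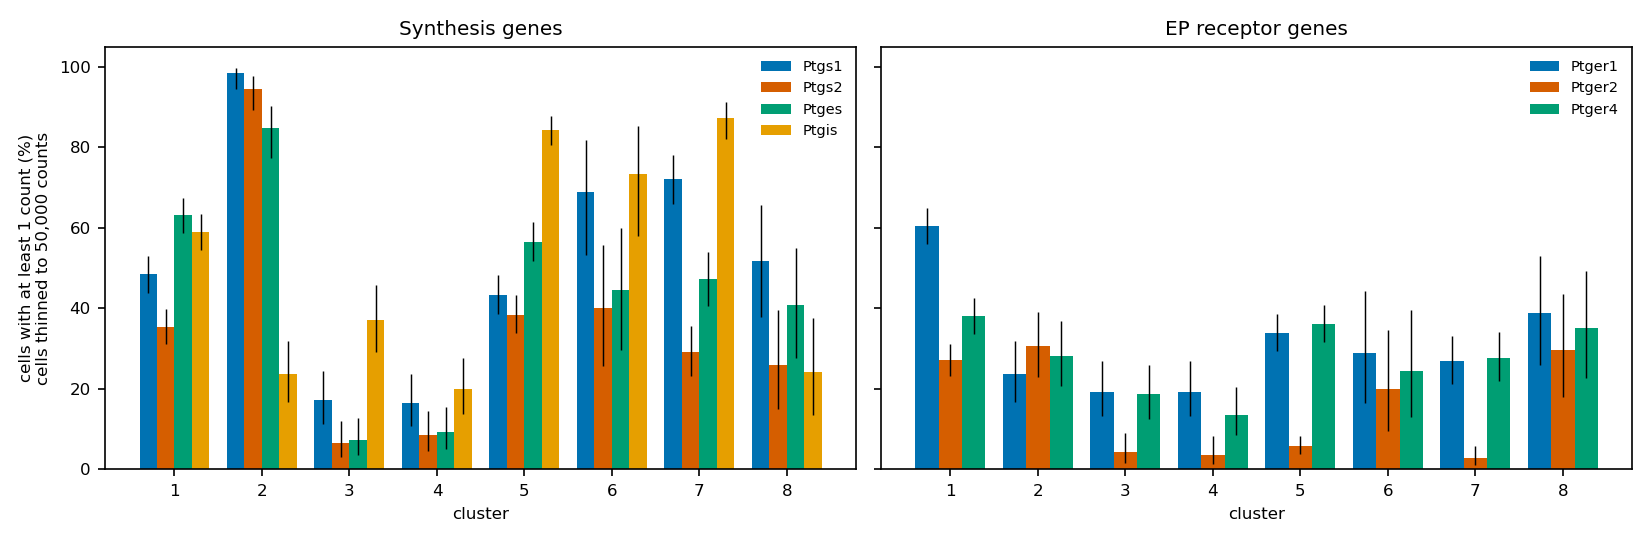
Percentage of cells with at least 1 count after thinning to 50000 counts per cell, for 4 synthesis genes and 3 EP receptor genes in clusters 1 to 8; bars start at 0 and black lines are 95% Clopper-Pearson intervals. *Ptgs1*, *Ptgs2* and *Ptges* reach 98.5%, 94.7% and 84.7% in cluster 2, and *Ptger2* stays under 6% in clusters 3, 4, 5 and 7.

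Fibroblasts were first compared with mural cells, to ask which members separate these classes across the colon. *Ptgs2* was 138.5, 75.5, 220.98 and 93.97 counts per 500000 in fibroblasts of Acta2GFP, Cspg4dsRED, PdgfraGFP and PdgfrbGFP, and 6.12, 1.59 and 2.50 in mural cells of Acta2GFP, Cspg4dsRED and PdgfrbGFP. The groups did not overlap, but the fibroblast values include the cells of cluster 2, whose line values were 811 to 1328. Line values of the other fibroblast clusters were 3.49 to 65.7, which overlap the 0.482 to 7.27 of the mural clusters. The class difference without cluster 2 was not tested. Summed counts per line and class were tested with edgeR's quasi-likelihood test and Benjamini-Hochberg adjustment over all genes tested. Of the 10 members, 9 were tested and 5 were called at an adjusted p under 0.05, all higher in fibroblasts, where 6.57% of all genes tested were called in either direction. The median log2 fold change was 1.72 over the 9 members and -0.03 over all genes. The study's authors defined the clusters on these same counts, and these tests and those below describe the clusters and are not independent of them. *Ptgs2* rose by a log2 fold change of 5.56 (SE 0.69, edgeR adjusted p = 0.00211), and was called under all 12 alternatives run, with adjusted p up to 0.0407.

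*Ptges* was 92.1, 38.5, 120 and 104.4 in fibroblasts and 26.2, 2.57 and 5.35 in mural cells of the same lines, again without overlap (log2 fold change 3.63, SE 0.74, edgeR adjusted p = 0.0184). *Hpgd* was 52.5, 17.97, 81.2 and 51.9 against 3.84, 7.15 and 10.8 (2.66, SE 0.52, edgeR adjusted p = 0.0157). For prostacyclin synthase, *Ptgis*, the values were 165.1, 180.8, 68.7 and 140.9 against 29.7, 43.5 and 30.4 (1.72, SE 0.41, edgeR adjusted p = 0.0379). *Ptger4* was 31.1, 25.5, 35.99 and 33.5 against 12.4, 6.68 and 9.34 (1.51, SE 0.35, edgeR adjusted p = 0.0338). None of these 4 genes overlapped between the classes, and the share of all genes without such overlap was not counted. *Ptgs1* did not overlap either (101.7 to 179.2 against 11.8 to 74.7) but was not called (log2 fold change 2.02, edgeR adjusted p = 0.118), its highest mural value being that of the 84 Acta2GFP cells, 52 of them of cluster 8. *Ptger1* (1.14, edgeR adjusted p = 0.167), *Ptger2* (1.19, 0.696) and *Ptger3* (-3.64, 0.360) were not called. With the line as a block, *Ptger4* was no longer called (1.57, edgeR adjusted p = 0.121) and 590 in place of 1259 genes were called in all. Without PdgfrbGFP, edgeR called only *Ptgs2* of the members (*Ptges* 0.137, *Hpgd* 0.0838, *Ptgis* and *Ptger4* each 0.219). *Ptger4* missed the threshold with limma (0.112), with no filter on low counts (0.0542), without Acta2GFP (0.153) and without PdgfraGFP (0.0566), *Hpgd* without Acta2GFP (0.110), and *Ptgis* without Acta2GFP (0.158) and without Cspg4dsRED (0.135), whereas *Ptgs1* was called without Acta2GFP (3.52, 0.0157) and with plates in place of lines (0.0275). Over all 12 alternatives the adjusted p ran from 3.39e-05 to 0.137 for *Ptges*, 1.60e-05 to 0.110 for *Hpgd*, 0.000513 to 0.219 for *Ptgis*, 1.07e-05 to 0.219 for *Ptger4* and 0.0157 to 0.306 for *Ptgs1*.

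Of 39 further genes of prostanoid and eicosanoid metabolism listed, 32 were tested between the classes, and 5 were higher in fibroblasts and none lower. Of all genes tested, 3.21% were higher and 3.36% lower. The median log2 fold change of these 32 genes was 1.04, against -0.03 over all genes. Phospholipase *Pla2g4a* was 87.3 to 147.6 in fibroblasts and 6.09 to 15.01 in mural cells (log2 fold change 3.62, edgeR adjusted p = 0.00247). *Pla2g2e*, a secreted phospholipase A2, was 3.61 to 8.50 against 0 to 0.210 (6.07, edgeR adjusted p = 0.0141), and *Abcc4*, which exports prostaglandins, was 9.75 to 77.5 against 0.597 to 4.87 (4.50, edgeR adjusted p = 0.0371). The others called were *Tbxas1*, thromboxane A synthase, and *Ptgfrn*, the negative regulator of the prostaglandin F receptor. With the line as a block, *Abcc4* (edgeR adjusted p = 0.0808), *Pla2g2e* (0.0717) and *Tbxas1* (0.148) were not called. *Abcc4* and *Tbxas1* also missed the threshold with limma (0.131, 0.0947) and without Cspg4dsRED (0.0828, 0.118), PdgfraGFP (0.0975, 0.101) or PdgfrbGFP (0.198, 0.171), *Tbxas1* without plate 075s (0.0652), and *Pla2g2e* without Acta2GFP (0.0909) or PdgfrbGFP (0.101).

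The apex-like cluster 2 was then compared with the mean of the fibroblast clusters 1, 5 and 7, to ask how its cells differ in this pathway from most other fibroblasts. Of the 9 members tested 5 were called, 4 higher and 1 lower, where 6.28% of all genes tested were called in either direction. The per-line levels given above do not overlap between cluster 2 and the other 3 clusters for *Ptgs2*, *Ptgs1*, *Ptges* and *Ptgis*, and do for *Ptger2*. The share of all genes without such overlap was not counted here either. *Ptgs2* rose by 5.50 on the log2 scale (SE 0.55, edgeR adjusted p = 1.86e-06), *Ptgs1* by 3.37 (SE 0.53, 0.000366) and *Ptges* by 1.72 (SE 0.37, 0.00670). *Ptger2* rose by 5.03 (SE 0.83, edgeR adjusted p = 0.000545) and *Ptgis* had a log2 fold change of -4.69 (SE 0.74, 0.000337). *Ptges* and *Ptgis*, which draw on the same prostaglandin H2, thus moved in opposite directions. *Hpgd* (0.48, edgeR adjusted p = 0.802), *Ptger1* (-0.13, 1), *Ptger4* (-0.24, 0.956) and *Ptger3* (0.77, 0.933) were not called. The median log2 fold change was 0.77 over the 9 members and -0.09 over all genes.

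The choice of reference mattered for *Ptger2* and *Ptges*. Against cluster 1 alone, a comparison added after the data were seen, *Ptger2* differed by 0.81 (edgeR adjusted p = 0.931) and *Ptges* by 1.03 (0.422), whereas *Ptgs2* (5.52, 0.00239), *Ptgs1* (3.35, 0.0429) and *Ptgis* (-3.15, 0.0327) were called. Against cluster 5 alone *Ptger2* was 7.06 (0.00306) and against cluster 7 alone it was 7.23 (0.00656). *Ptgs1* was not called against cluster 7 alone (2.52, edgeR adjusted p = 0.0836). Leaving out Acta2GFP ended the calls of *Ptger2* (0.0823) and *Ptges* (0.0951), leaving out PdgfrbGFP that of *Ptges* (0.106), and sums of at least 3 cells that of *Ptges* as well (0.0726). Over the 13 alternatives planned for this comparison, the adjusted p ran from 1.33e-07 to 0.0823 for *Ptger2* and from 0.000172 to 0.106 for *Ptges*.

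Among the 36 further pathway genes tested in cluster 2, 5 were higher and 2 lower, where 4.42% of all genes tested were higher and 1.86% lower. The median log2 fold change of these 36 genes was -0.58, against -0.09 over all genes. *Tbxas1* was 103.7, 38.9 and 130 in cluster 2 of Acta2GFP, PdgfraGFP and PdgfrbGFP and at most 8.31 in clusters 1, 5 and 7 (log2 fold change 7.07, edgeR adjusted p = 0.000133). *Abcc4* was 125.3, 266.7 and 213.6 against at most 16.6 (5.21, edgeR adjusted p = 4.98e-06). *Ptgs2os*, the transcript that starts head to head with *Ptgs2* on the other strand without sharing its exons, was 10.3, 7.63 and 17.9 against at most 2.07 (4.65, edgeR adjusted p = 0.0404). *Pla2g4a*, which supplies arachidonic acid, reached 510, 383.3 and 540 in cluster 2 and at most 139.3 in any other line value, and *Akr1b3*, an aldo-keto reductase with prostaglandin F synthase activity, was the fifth gene called higher. *Pla2g2e* was 0.0215, 0.321 and 0.660 against at least 1.88 (-4.34, edgeR adjusted p = 0.0336), and *Tbxa2r*, the thromboxane receptor, was 0.0900, 0.201 and 1.76 against at least 1.73, with overlap (-4.24, edgeR adjusted p = 0.0422). Leaving out Acta2GFP or PdgfraGFP ended the calls of *Pla2g2e* (0.237, 0.160), *Tbxa2r* (0.404, 0.187) and *Ptgs2os* (0.193, 0.0868), and leaving out PdgfrbGFP those of *Pla2g2e* (0.251) and *Ptgs2os* (0.159). The same 3 calls ended with sums of at least 3 cells (0.0681, 0.104 and 0.101), those of *Pla2g2e* (0.0655) and *Tbxa2r* (0.655) with limma, and that of *Pla2g2e* with no filter on low counts (0.0527). Against cluster 1 alone *Pla2g2e* (0.165), *Tbxa2r* (0.0819), *Ptgs2os* (0.577) and *Tbxas1* (0.129) were not called.

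Cluster 6, 45 cells whose apex markers summed to 438.1 (below the 563.6 of cluster 1), was compared with clusters 1, 5 and 7 in the same way. Only *Ptger2* of the 9 members was called, higher by 4.07 on the log2 scale (SE 0.88, edgeR adjusted p = 0.0110), where 4.49% of all genes tested were called and the median of all genes was -0.48. Its 2 line values of 26.1 and 21.5 lay below cluster 1 and above clusters 5 and 7, and 55.6% of the PdgfraGFP value came from 1 of 26 cells. Against cluster 1 alone the difference was -0.15 (edgeR adjusted p = 0.991). *Ptgs1* (1.16, edgeR adjusted p = 0.374) and *Ptgs2* (1.14, 0.383) were not called, with line values of 190 and 71.5, and of 26.5 and 65.7. *Ptger4* was not called either (-1.96, edgeR adjusted p = 0.197), but was called lower with DESeq2 (adjusted p = 0.0421) and with limma (0.0179). Leaving out Acta2GFP or PdgfraGFP, which leaves 1 line in cluster 6, ended the call of *Ptger2* (0.200, 0.183), as did limma (0.131), within a range of 0.000396 to 0.200 over 13 alternatives. Of 36 further pathway genes, *Tbxas1* (3.80, edgeR adjusted p = 0.0371; 0 in Acta2GFP and 16.9 in PdgfraGFP) and *Abcc4* (2.92, 0.00931; 41.1 and 43.9) were called higher. *Pla2g2e* and *Tbxa2r* were called lower: *Pla2g2e* had 0 counts in the sums of cluster 6, at least 77.01-fold lower than the mean of clusters 1, 5 and 7 when a floor of 3 counts over the group is used, and *Tbxa2r* had 1 count. Each of these 4 calls ended without Acta2GFP (adjusted p 0.127 to 0.228) and without PdgfraGFP (0.0885 to 0.310), and that of *Pla2g2e* without PdgfrbGFP (0.0705). Other settings that ended them were limma for *Tbxas1* (0.920) and *Tbxa2r* (0.226), only the clusters compared for *Tbxas1* (0.110), sums of at least 3 cells for *Abcc4* (0.0542) and *Tbxa2r* (0.121), and the block for *Tbxa2r* (0.0511). Against cluster 1 alone *Tbxas1* (0.646), *Abcc4* (0.154) and *Tbxa2r* (0.0716) were not called.

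Cluster 7 was compared with cluster 1, a pair taken up with their EP receptor levels known, so that the values for these receptors are a description and no support for a difference between the clusters. *Ptger1* fell by 4.79 on the log2 scale (SE 0.94, edgeR adjusted p = 0.0212) and *Ptger2* fell by 6.41 (SE 1.41, 0.0448), 2 of 9 members where 0.488% of all genes tested were called. The line values given above did not overlap for either gene. *Ptgis* was higher in cluster 7 in every line (139.4 to 230 against 15.5 to 83.1) but was not called (2.11, edgeR adjusted p = 0.276), except with plates in place of lines (0.0256) and with only the clusters compared (0.0435). For the cyclooxygenases the log2 fold changes were 0.82 for *Ptgs1* (edgeR adjusted p = 0.954) and -0.18 for *Ptgs2* (1). With the line as a block both receptor calls stood (*Ptger1* -5.06, edgeR adjusted p = 0.00666, and *Ptger2* -6.53, 0.00285), and the share of genes called was 0.773% in place of 0.488%. Without Acta2GFP or PdgfrbGFP neither gene was called (*Ptger1* 0.204 and 0.348, *Ptger2* 0.736 and 0.111), nor was *Ptger2* without PdgfraGFP (0.430) or *Ptger1* with limma (0.0904), within ranges of 4.17e-06 to 0.348 for *Ptger1* and 5.60e-07 to 0.736 for *Ptger2* over 13 alternatives. Of 36 further pathway genes only *Mgll*, monoacylglycerol lipase, was called, with 130.99, 133.6 and 123.9 in cluster 7 and 15.3, 17.05 and 30.6 in cluster 1 (2.84, edgeR adjusted p = 0.0105). The edgeR adjusted p of *Mgll* was 0.537, 0.105 and 0.0501 without Acta2GFP, PdgfraGFP and PdgfrbGFP.

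Among mural cells *Ptges* was the member called in each comparison with the smooth muscle-like cluster 3. It was 40.4 in the 1 line of cluster 8, 4.79 and 8.93 in the pericyte-like cluster 4 and 0.132 to 2.96 in cluster 3. Summed fibroblast markers had the same order, with 1758 in cluster 8, 1237 in cluster 4 and 462.9 in cluster 3. Their bearing on *Ptges* and on the other calls below was not tested. The *Ptges* difference in cluster 4 was 2.74 on the log2 scale (SE 0.59, edgeR adjusted p = 0.0317), 1 of 9 members where 0.819% of all genes tested were called. That in cluster 8 was 5.19 (SE 0.68, edgeR adjusted p = 0.000313), 1 of 9 where 1.01% were called. Cluster 8 is a single sum from 1 line, which is assumed to vary as the other clusters do, so its values have no replicate check of their own, and its *Ptges* call ended with limma on mean log levels (adjusted p = 0.450) and with only clusters 3 and 8 in the edgeR fit (0.211). For cluster 4, 96.5% of the Cspg4dsRED value of 4.79 came from 1 of 33 cells and the other 32 averaged 0.171, within the 0.132 to 2.96 of cluster 3. That call ended without Cspg4dsRED (0.0823), PdgfraGFP (0.0546), PdgfrbGFP (0.477) or plate 075s (0.0520), with sums of at least 3 cells (0.219) and with only the clusters compared (0.637), and with limma on mean log levels the difference was -0.03, the adjusted p running from 0.000223 to 1 over 13 alternatives. *Ptger2* was 36.004 in cluster 8 against 0 to 2.15 in cluster 3 and was not called (5.39, edgeR adjusted p = 0.0994), but was called with DESeq2 (0.00575), with the line as a block (5.33, 0.0416), with sums of at least 3 cells (0.0386), with plates in place of lines (0.0191), without Cspg4dsRED (0.0194) and without PdgfrbGFP (0.0499), its adjusted p running from 0.00575 to 0.249 over 12 alternatives. *Ptger1* was called in cluster 8 with plates in place of lines (edgeR adjusted p = 0.0395) and *Ptgs1* with sums of at least 3 cells (0.0162). *Ptgfrn* was 0.290 to 1.39 in cluster 3, 3.17 and 19.8 in cluster 4 and 17.5 in cluster 8, and was called in both comparisons (4.62, edgeR adjusted p = 0.00748 in cluster 8, and 4.05, 0.0138 in cluster 4), as was *Abcc4* in cluster 8 (4.97, 0.0269), these being 2 and 1 of 36 further pathway genes. None of these 3 calls stood without PdgfrbGFP (0.0642, 0.598 and 0.216), with limma (0.841, 0.995 and 0.849) or with only the clusters compared (0.357, 0.391 and 0.458), nor did those of *Ptgfrn* in cluster 4 (0.0502) and *Abcc4* (0.115) with sums of at least 3 cells.

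**Figure D4:**
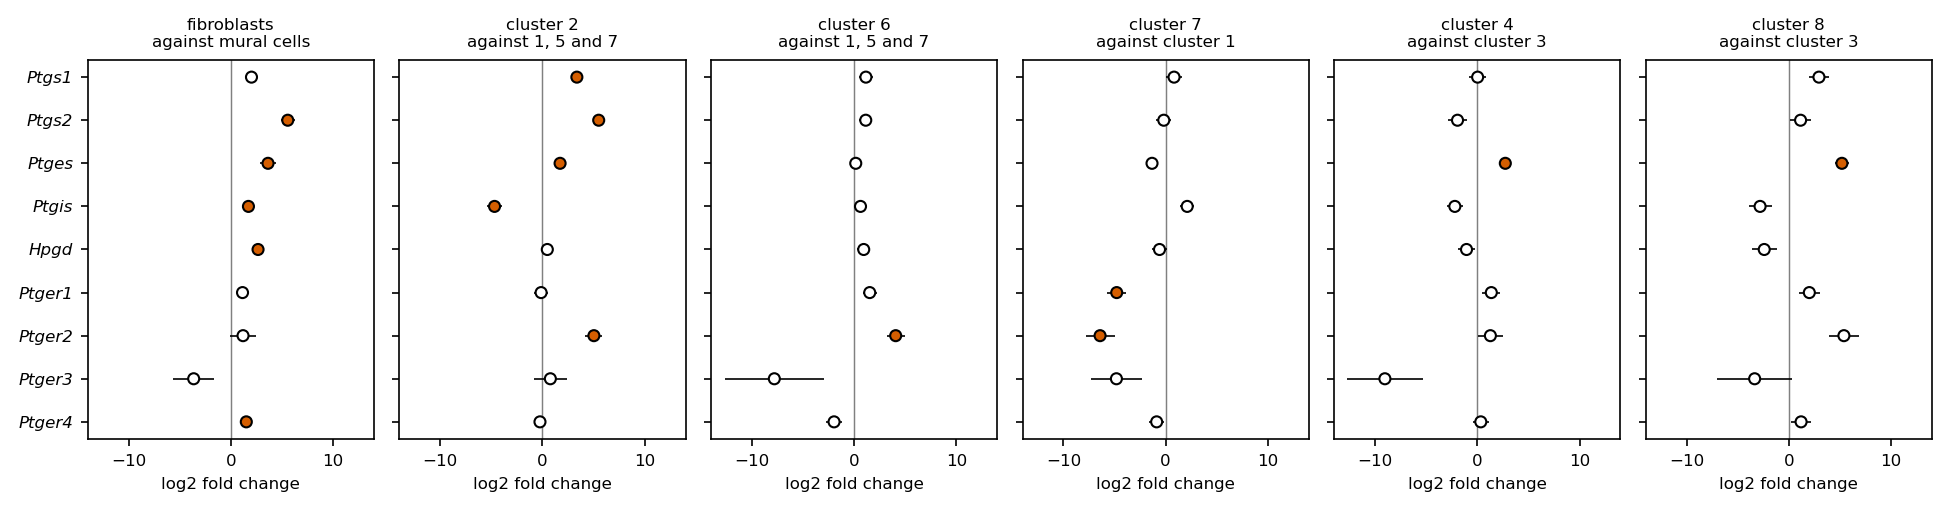
Log2 fold changes of the members in the 6 comparisons, from edgeR on summed counts, with bars of 1 SE; orange points have an adjusted p under 0.05 and white points do not. *Ptgs2* stands at 5.56 between fibroblasts and mural cells and at 5.50 between cluster 2 and clusters 1, 5 and 7, and *Ptgis* at -4.69 in the latter.

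*Ptgs2* is known as an immediate early gene, and other genes of this kind, such as *Fos*, can rise during tissue dissociation, so their level is given beside it. Averaged as log2(counts per 500000 + 1), their level was 8.28, 7.33 and 7.73 in cluster 2 of Acta2GFP, PdgfraGFP and PdgfrbGFP, above the 3.81 to 5.50 of cluster 1, the 5.57 to 6.72 of cluster 5 and the 4.77 to 5.93 of cluster 7. The immediate early genes thus moved with *Ptgs2* between cluster 2 and the clusters it was compared with, and their part in the *Ptgs2* difference was not tested. In cluster 3 their level was 7.76, 7.41 and 6.92 in Acta2GFP, Cspg4dsRED and PdgfrbGFP, and *Ptgs2* was 1.959 to 2.97. Within cluster 2, across cells, Spearman's rho between *Ptgs2* and the immediate early genes was 0.498 (44 cells), 0.654 (55 cells) and 0.758 (30 cells), and between *Ptgs1* and them it was -0.213, 0.138 and 0.109. These cells share plates and depth. On the PdgfrbGFP plate numbered 075 immediate early genes stood at 7.69 in cluster 1, against 4.02 on plate 073s of the same line, and *Ptgs2* was 82.7 against 16.04 in cluster 1 and 1524 against 697 in cluster 2. Without plate 075s the log2 fold change of *Ptgs2* in cluster 2 was 5.61 (edgeR adjusted p = 1.16e-06).

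**Figure D5:**
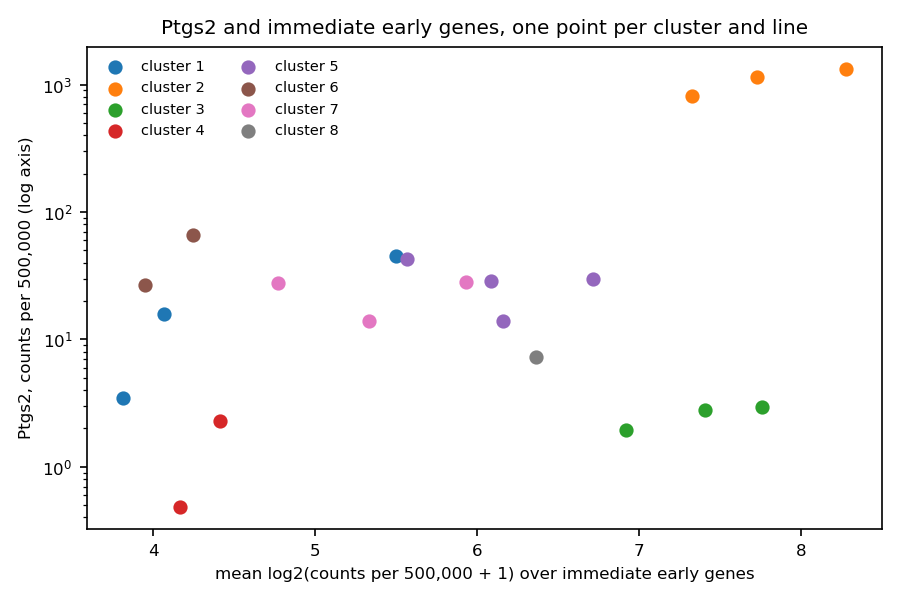
*Ptgs2* level (counts per 500000, log axis) against the mean log2 level of immediate early genes, 1 point per cluster and line. The cluster 2 points lie at 811 to 1328 on the vertical axis and 7.33 to 8.28 on the horizontal one, to the right of clusters 1, 5 and 7, and the cluster 3 points at 1.959 to 2.97 and 6.92 to 7.76.

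Low counts of *Ptgs2* outside cluster 2 moved with the plate position of cluster 2 cells. In cells of clusters 1, 5 and 7 the *Ptgs2* level was set against the *Ptgs2* counts of cluster 2 cells in a shared plate row or column, and Spearman's rho was 0.0522 to 0.604 over 7 plates. On plate 073s, 64.6% of the cells that shared a row or column with a cluster 2 cell had a *Ptgs2* count, against 32.8% of the 67 that did not. On the Acta2GFP plate with 4 cells of cluster 2 the shares were 74% of 100 cells and 45.2% of the others. The part of transfer between wells in the low *Ptgs2* levels outside cluster 2 was not tested.

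The genes whose pattern was most like each member were sought by Pearson's r over the 21 cluster-by-line means, among 11020 genes. The means share lines, plates and depth, so the values are a description. *Ptgs1* was closest to *Gm43621* (0.972), a transcript of uncertain status that overlaps its exons on the other strand, then to *Nedd9* (0.892), a focal adhesion scaffold, and *Gramd4* (0.852). *Ptgs2* was closest to *Mir7025* (0.918), *Pla2g7* (0.903), which encodes the platelet-activating factor acetylhydrolase, and *1700071M16Rik* (0.899). *Ptges* was closest to *Mmp2* (0.965), *Col6a2* (0.961) and *Bmp4* (0.949), which encode a matrix metalloproteinase, a collagen VI chain and a bone morphogenetic protein. *Ptgis* was closest to *Slit3* (0.855), a guidance cue, *Itm2a* (0.834) and *Carhsp1* (0.834). *Ptger2* was closest to *Syt13* (0.959), *Enho* (0.955) and *Foxf2* (0.930), a forkhead factor of gut mesenchyme. *Ptger1* was closest to *Zmynd15* (0.840) and *Hcar1* (0.824), and *Ptger4* to *Arsa* (0.866), *Capn5* (0.861) and *P2ry1* (0.858). *Hpgd* was closest to *Syt17* (0.844), *Ctsh* (0.839) and *Bsg* (0.825), and *Ptger3* to *Neurl1a* (0.721), *Snx2* (0.632) and *Sun2* (0.613).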

How the data were processed

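Per the authors' methods, reads were demultiplexed with bcl2fastq, adapter-trimmed, aligned with TopHat2 to GRCm38, and stripped with samtools of what is called doublets. The values the authors deposited are raw read counts, whole numbers from featureCounts for each gene in each cell. Strand use in counting is not given in the sources used here. The authors removed cells with few counts or genes, with a high ERCC or mitochondrial share, with very many genes (as potential doublets), without *Pdgfra* and *Pdgfrb*, or with endothelial or immune signatures; here no further cell was removed and no doublet caller was run. The 92 ERCC rows (1.36% of counts) were left out. Of 46517 genes 46005 had a GENCODE vM21 symbol. The members, gene lists and tests were chosen with earlier results of these data known.

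Counts were summed per cluster and line (at least 10 cells, 21 sums) or per class and line (7 sums) and tested with edgeR 4.0.16 in R 4.3.3 (TMM, filterByExpr, glmQLFit, glmQLFTest, Benjamini-Hochberg over all genes tested, adjusted p under 0.05), a step tested on simulated data. The fibroblast and mural sums were fitted alone, and the 8 clusters together. The p-values measure the spread between lines, which differ in gate and digestion. DESeq2 1.42.0 and limma 3.58.1 were alternatives. Named beside the members were the pathway genes past the threshold with the largest log2 fold changes, up to 3 each way in a comparison, other genes called being named as part of their count; and the 3 genes closest in pattern to each member, of which 1 is not reported here.

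Lines were also fitted as a replicate block. Same-line sums deviated together from their group means by Pearson's r of 0.152 to 0.175 between fibroblasts and mural cells. Between clusters 7 and 1 it was 0.121 to 0.170, so r was over 0.1 for every line in both comparisons. The main fits, and the calls and shares first given for each comparison, nevertheless left out the line and are unpaired. The block, which pairs the lines, is given as an alternative, and between the classes it called 3.08% of genes in place of 6.57%. For the other comparisons the lowest values were 0.0331 (cluster 6), 0.0816 (cluster 2) and 0.167 (cluster 4, with 2 shared lines).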

Additional observations from a re-analysis of the deposited data

Results flagged for a closer look

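Dixon's criterion was applied to 19 groups of 4 lines and marked 3, where chance marks about 1 in 20. *Ptger3* in cluster 5 was 4.84 counts per 500000 in PdgfraGFP and 0.169 to 0.690 in the other lines, and the PdgfraGFP value came almost entirely from 1 cell. *Ptger4* in cluster 5 was 42.3 in PdgfraGFP and 30.6 to 32.5 in the other lines. *Ptgds* in fibroblasts was 0.0471 in Acta2GFP, the 5 counts given in the report, and 0 in the others.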

How the results depend on the processing

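*Ptgs2* (fibroblasts against mural cells, and cluster 2), *Ptgis* and *Ptgs1* (cluster 2) were called under every alternative that gave an adjusted p (DESeq2 gave NA for *Ptgs1*), except *Ptgs1* against cluster 7 alone (adjusted p = 0.0836). Leaving out 1 line at a time, the number of members called ran from 1 to 4 between the classes (5 with all lines), 3 to 5 in cluster 2 (5), 0 to 1 in cluster 6 (1), 0 to 2 in cluster 7 (2), 0 to 1 in cluster 4 (1) and 1 to 2 in cluster 8 (1), which could not be run without Acta2GFP, its only line. Against cluster 1 alone, 3 members were called in cluster 2 and 0 in cluster 6, and against cluster 7 alone 2 in cluster 6. With plates in place of lines 3 were called in cluster 7. Under limma 1 was called in cluster 7 and 0 in clusters 4 and 8. The cluster 4 call was also 0 with sums of at least 3 cells, without plate 075s and with only the clusters compared, which gave 0 in cluster 8 too. In cluster 8, 2 were called with DESeq2, 3 with sums of at least 3 cells and 3 with plates in place of lines, and in cluster 6, 2 with DESeq2. Over all genes tested, the share called ran over the alternatives from 1.81% to 16.1% between the classes, 1.30% to 10.4% in cluster 2, 0.605% to 12.6% in cluster 6, 0.0709% to 2.86% in cluster 7, 0.226% to 5.57% in cluster 4 and 0.485% to 5.14% in cluster 8. With DESeq2 size factors 4.35% were higher and 5.12% lower in cluster 2 (4.42% and 1.86% with edgeR), 3.54% and 9.04% in cluster 6 (2.52% and 1.97%), 2.96% and 2.61% in cluster 4 (0.621% and 0.198%) and 2.38% and 2.76% in cluster 8 (0.879% and 0.129%).

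With the line as a block, which pairs the classes and clusters 7 and 1, 590 genes were called between the classes in place of 1259, and 2 members in cluster 8; log2 fold changes that turned were *Ptger3* 0.73 between the classes, *Ptger1* 0.25 in cluster 2, *Ptges* -0.0259 in cluster 6 and *Ptgs2* 0.00153 in cluster 7. None of the 38 log2 fold changes that turned sign was called after turning, and 3 belonged to genes called in the report (*Ptger2* and *Tbxas1* in cluster 6 and *Ptges* in cluster 4); the cause was not tested.

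Against cluster 1 alone these were *Ptger3* -0.81 in cluster 2, and *Ptger1* -0.87, *Ptger2* -0.15 and *Ptges* -0.53 in cluster 6. Against cluster 5 alone they were *Ptger3* -0.88 in cluster 2 and *Ptgis* -0.33 in cluster 6, and against cluster 7 alone *Ptger1* 2.25 and *Ptger4* 0.34 in cluster 2. Sums of at least 3 cells gave *Ptger1* 0.0271 in cluster 2 and *Ptgs1* -0.17 in cluster 4, and plates *Ptger1* -1.11 and *Ptgis* -0.14 in cluster 6. With limma they were *Ptger3* 0.00919 between the classes, *Ptgs2* 0.0944 in cluster 7, *Ptger3* 0.11 in cluster 8, and in cluster 4 *Ptger2* -0.0788, *Ptger4* -0.13, *Ptges* -0.0347 and *Ptgs1* -0.32. Without plate 075s *Ptger3* was -1.60 in cluster 2. Leaving out 1 line at a time, the values that turned at least once ran, between the classes, from -4.51 to 5.76 for *Ptger3*. In cluster 2 they ran from -0.52 to 0.21 for *Ptger1*, -1.59 to 2.11 for *Ptger3* and -0.70 to 0.20 for *Ptger4*, and in cluster 6 from -0.78 to 2.11 for *Ptger1*, -0.00886 to 0.44 for *Ptges*, -0.67 to 1.79 for *Ptgs2* and -8.92 to 5.38 for *Tbxas1*, negative without PdgfraGFP. In cluster 7 *Ptgs2* ran from -0.81 to 1.23. In cluster 4 the ranges were -5.78 to 1.71 for *Ptger2*, -11.05 to 4.37 for *Ptger3*, -0.81 to 1.86 for *Ptger4* and -1.89 to 1.88 for *Ptgs1*.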

Other observations

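Receptors for other prostanoids, from the list of further pathway genes, had patterns of their own, given here as levels without a test. *Ptgir*, the prostacyclin receptor, was 46.6 to 63.8 counts per 500000 in cluster 3, 51.7 and 54.8 in cluster 4 and 53.8 to 61.8 in cluster 5, and at most 15.2 in every other line value. Its 4 values in cluster 5 thus lay in the range of clusters 3 and 4, and cluster 5 was also among the clusters with the most *Ptgis*, the enzyme that makes prostacyclin. *Ptgfr*, the prostaglandin F receptor, was 71.6, 40.5 and 35.03 in cluster 5 of Acta2GFP, PdgfraGFP and PdgfrbGFP, but 0.338 in the 13 Cspg4dsRED cells, and at most 21.7 elsewhere. *Tbxa2r* was 68.8 in cluster 8 and 9.25 to 39.03 in cluster 3.

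*Mgll* was 287.6 in cluster 8, above the 11.5 to 133.6 of all other line values. The D prostanoid receptors *Ptgdr* and *Ptgdr2* stayed at or below 0.124 and 1.74, and *Pla2g2a* had no counts.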
